A study of Mus musculus with 4 samples.

Results

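Potassium channel genes were taken as every row of the read-count files whose symbol starts with Kcn, apart from Kcnq1ot1, a noncoding RNA. This gave 94 of the 23366 gene symbols, and the same 94 rows stood in each file. The libraries were made from polyadenylated RNA of mouse R1 cells, an embryonic stem line from the 129X1 x 129S1 strain background, kept on gelatin in medium with serum, serum replacement and LIF, a cytokine that maintains the undifferentiated state. There were 2 libraries of cells that received a short hairpin RNA against Cyrano and 2 of control cells that received a non-targeting hairpin. In both groups the hairpin came from a vector with an Ef1a promoter, a fluorescent marker and puromycin resistance, delivered with a lipid reagent, and cells that had taken it up were enriched with puromycin or by sorting. Cyrano, listed as 1700020I14Rik, is a long noncoding RNA that carries a miR-7 site (miR-7 being a microRNA), and the series' title concerns microRNA activity and self-renewal. The comparison here asked which potassium channel genes have counts in stem cells and which differ after the knockdown.

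Potassium channels are membrane pores that let potassium ions leave or enter a cell along their gradient and so set the voltage across the membrane. Voltage-gated channels open on depolarisation, inward rectifiers (Kir) pass current best near rest, and K2P channels, with a pair of pore domains in each subunit, leak potassium at all voltages. Accessory subunits, among them the Kv beta, KCNE and KChIP proteins, have no pore and alter the gating or transport of the channels they bind. In stem cells and other dividing cells, potassium currents are known to bear on membrane voltage, cell volume and the cell cycle, whereas many members are best known from neurons and the heart.

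Counts over genes summed to 22321102 and 20761783 in knockdown libraries 1 and 2, and to 16854403 and 19138196 in control libraries 1 and 2. Cyrano had 3.99 and 3.16 CPM (counts scaled to a common library total with TMM factors) in the knockdown libraries, against 24.8 and 15.1 CPM in the controls. Its log2 fold change was -2.48 ± 0.30 (SE; edgeR quasi-likelihood adjusted p = 0.0070). The 10 stem cell markers had reads in every library and summed to 4820 and 4660 CPM in knockdown libraries, against 4860 and 5150 CPM in controls. None was called by edgeR (1 higher and 2 lower at an unadjusted p under 0.05), the lowest adjusted p being 0.07 for Nanog, at 129 and 133 CPM in knockdown libraries and 216 and 228 CPM in controls (-0.76 ± 0.14). The 13 neuron markers summed to 554 and 468 CPM in knockdown libraries, against 449 and 506 CPM in controls, with Dcx alone at 0. Most of this was Stmn2, at 371 and 264 CPM in knockdown libraries and 251 and 281 CPM in controls. Tubb3 followed, at 90.4 and 129 CPM in knockdown libraries and 122 and 162 CPM in controls. Cardiac markers summed to 26.1 and 23.5 CPM in knockdown libraries, against 20.7 and 16.5 CPM in controls, with Pln at 0. Of these, Ryr2 had the highest mean, at 9.18 and 5.44 CPM in knockdown libraries and 8.33 and 4.50 CPM in controls. Actn2 followed, at 7.48 and 10.4 CPM in knockdown libraries and 4.38 and 3.97 CPM in controls. Fibroblast markers summed to 53.1 and 26.2 CPM in knockdown libraries, against 44.6 and 31.4 CPM in controls, with 5 of 9 at 0, Col3a1 among them. Most of each fibroblast sum was Thy1, at 48.0 and 20.4 CPM in knockdown libraries and 38.0 and 21.6 CPM in controls. The 8 primitive endoderm markers all had reads and summed to 166 and 203 CPM in knockdown libraries, against 109 and 124 CPM in controls. Their median log2 fold change was 0.82. None was called by edgeR, with 5 higher and 1 lower at an unadjusted p under 0.05. The lower one was Hnf4a, at 4.30 and 2.51 CPM in knockdown libraries and 9.49 and 5.03 CPM in controls. The sums of the stem cell, cardiac and primitive endoderm markers did not overlap between groups. Those of the neuron and fibroblast markers did. The stem cell sums nearly met, at 4820 CPM in knockdown library 1 and 4860 CPM in control library 1. The median log2 fold change of the stem cell markers was -0.04. Such separation was common among single genes: 21.3% of all tested genes were separated with the knockdown group lower, and 22.3% with it higher. The part of the marker differences in the channel results was not tested. In bulk RNA, fewer cells of a type and less RNA per cell cannot be told apart.

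Because Cyrano carries a miR-7 site, the sequences shown are the mature mouse miR-7 forms (RefSeq, GRCm38.p6) and the matching sites in 5 channel transcripts, chosen as the most abundant channel gene, the 3 tested members with a site of 8 bases, and Kcnab3, which lay lower in both knockdown libraries. Capitals mark the seed, bases 2 to 8 of the microRNA, and the matched bases in the 3′ UTRs of the annotated transcripts (GENCODE M21, GRCm38).
mmu-miR-7a-5p: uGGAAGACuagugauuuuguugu
mmu-miR-7b-5p: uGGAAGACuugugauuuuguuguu
Kcnk5: gtttgctgcttgtGTCTTCCcccatcactc
Kcnk6: tgcatatgtgtgaGTCTTCCAccctacaca
Kcnf1: aggagctgcttgtGTCTTCCAgccctcccc
Kcnab2: tttctgagaggttGTCTTCCAcacccactc
Kcnab3: gatgacttcagtcGTCTTCCtggcaataaa

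Both miR-7 forms share the seed. The 3′ UTRs were searched on the transcript strand for GTCTTCC or TCTTCCA, which overlap where a site has all 8 bases. The Kcnk5 match starts 295 bases into a 3′ UTR of 1526 bases, the Kcnf1 match at base 101 of 2601 and the Kcnk6 match at base 2750 of 3110. Kcnh3 had no match in its 3′ UTR of 295 bases, nor had Kcnh2 in 411 bases.

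Most channel genes had few or no reads in these cells. Of the 94, 19 had no read in any library, 31 had reads in some libraries, and 44 had a read in all 4. A read in at least 1 library was found for 75 of the 94, and for 17005 of all 23366 symbols. The filter on low counts used for testing kept 34% of the members, against 56.5% of all genes. A mean of at least 1 CPM was reached by 22 genes, and a mean of at least 10 CPM by 2, Kcnk5 and Kcnh2. Summed over the 94, the level was 214 and 211 CPM in knockdown libraries, against 213 and 239 CPM in controls, so the groups overlapped. A count of 0 allows up to 3 counts, which is 0.134 and 0.139 CPM in knockdown libraries and 0.183 and 0.159 CPM in controls, a limit that covers counting error only.

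The genes without a read were Kcna10, Kcnab1, Kcnb2, Kcnd2, Kcne1, Kcne4, Kcnip1, Kcnip4, Kcnj1, Kcnj6, Kcnj13, Kcnk9, Kcnk10, Kcnk15, Kcnk16, Kcnk18, Kcnmb3, Kcnq1 and Kcnv1. Kcnj1 is the secretory channel of the kidney tubule and Kcnd2 carries the transient dendritic current of neurons. Kcnq1, whose heart channel partner is Kcne1, had no read, whereas Kcnq1ot1, transcribed from the opposite strand of the same locus, had 1263 and 947 counts in knockdown libraries, against 986 and 575 in controls. In the GRCm38 annotation, which is not the one behind the counts, Kcnq1ot1 covers 2.96% of the exonic bases of Kcnq1. Whether strand entered the counting was not given in the sources used here, and reads shared by overlapping genes enter no gene count.

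**Figure D1:**
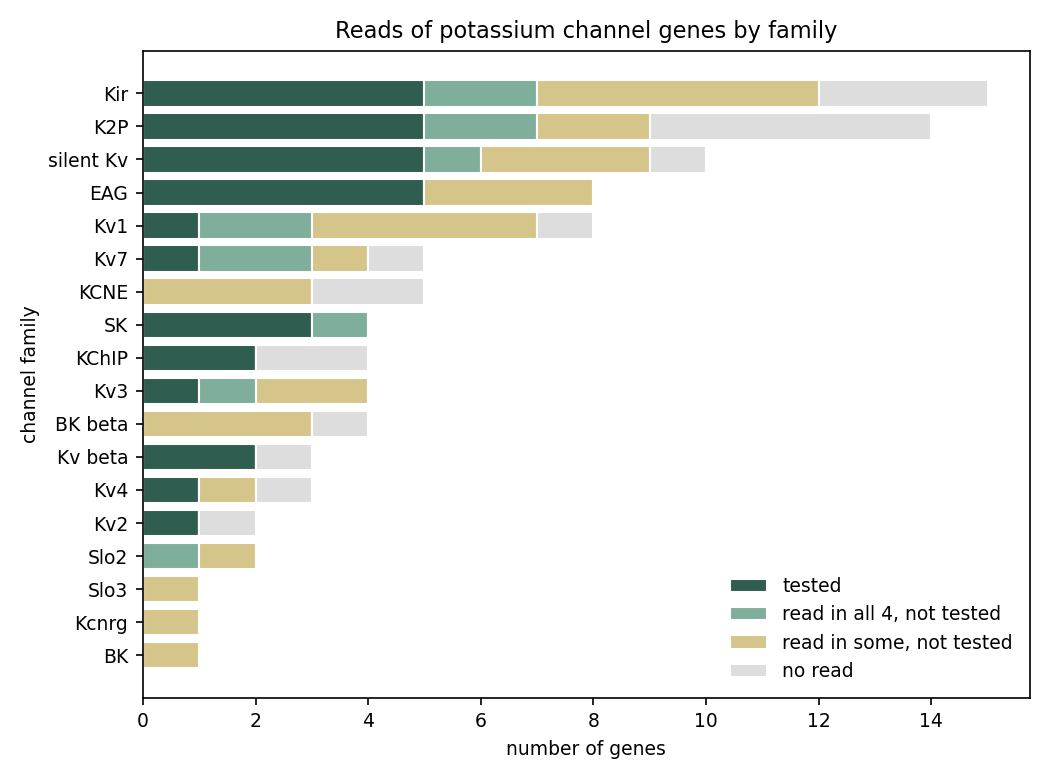
Number of potassium channel genes in each family, split by whether the gene was tested, had a read in all 4 libraries but was not tested, had reads in some libraries, or had no read. The Kir, K2P, silent Kv and EAG families each had 5 tested genes, and no KCNE, BK or BK beta gene was tested.

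Whole branches of the family were nearly absent. The large-conductance calcium-activated channel gene Kcnma1 had 1 and 0 counts in knockdown libraries, against 1 and 2 counts in controls. None of its 4 beta subunit genes was tested, and none of the 5 KCNE genes had a read in all 4 libraries. The Kv1 family, which shapes firing in axons, had 8 genes of which Kcna7 alone was tested. Kcna7 had 29 and 18 counts in knockdown libraries, against 26 and 28 in controls.

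Kcnk5 was the most abundant member, and Kcnh2 followed it. Kcnk5 encodes an acid-sensitive K2P leak channel, and Kcnh2 the ERG channel known for repolarising the heart. To compare genes, levels were divided by transcript length, which gave a mean of 27.8 CPM per kilobase for Kcnk5 (23.4 to 33.0 over the 4 libraries) and 7.34 CPM per kilobase for Kcnh2 (5.38 to 9.31). Next came Kcnj12, an inward rectifier of the strong Kir2 type, at 2.70 (2.21 to 2.92), Kcnk1, the TWIK type K2P gene, at 2.66 (1.96 to 3.22), and Kcns3, a silent subunit that modifies Kv2 channels, at 2.49 (2.23 to 2.76). The ranges of Kcnk5 and Kcnh2 did not overlap each other or that of Kcnj12. From Kcnj12 downward, each of the ranks 3 to 10 overlapped the next in range, so their order was not resolved by the spread over libraries.

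Kcnk5 had 95 and 112 CPM in the knockdown libraries, against 79.5 and 91.3 CPM in the controls. Both knockdown libraries lay above both controls, with a gap between 95 and 91.3 CPM. The means were 103 ± 11.9 CPM after knockdown and 85.4 ± 8.34 CPM in controls (SD, n = 2 each), and the log2 fold change of 0.28 ± 0.15 (SE) was not called (edgeR adjusted p = 0.51). It was 0.16 without knockdown library 2 and 0.18 without control library 1. Under the replicate block with the length and GC correction it was called, at 0.37 (adjusted p = 0.019, where the alternatives ran from 0.019 to 0.98). Kcnk5 took 44.3% and 52.9% of all reads on the 94 genes in knockdown libraries, against 37.3% and 38.3% in controls.

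**Figure D2:**
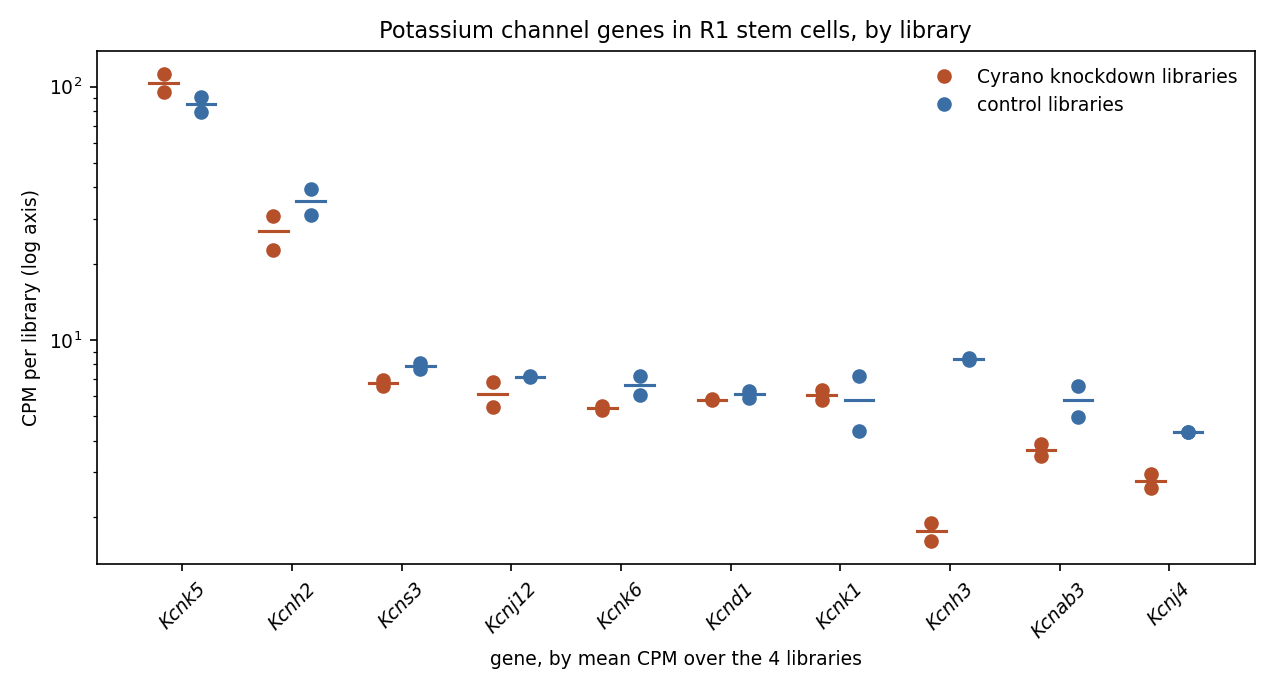
CPM in each library (points, log axis) and group means (lines) of 10 potassium channel genes named by level or test, with knockdown libraries left of control libraries. Kcnk5 lies highest, and Kcnh3 is at 1.61 and 1.90 CPM in knockdown libraries and 8.52 and 8.31 CPM in controls.

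Kcnh3 was the one member called after the knockdown, and it fell. It encodes an ELK-type voltage-gated channel of the EAG superfamily, known from forebrain neurons, where it opens below the firing threshold and restrains excitability. The gene had 36 and 41 counts in knockdown libraries, against 140 and 157 counts in controls, or 1.61 and 1.90 CPM against 8.52 and 8.31 CPM. The groups did not overlap, with means of 1.76 ± 0.207 CPM after knockdown and 8.42 ± 0.143 CPM in controls (SD, n = 2 each). This is a 4.78-fold fall, with a log2 fold change of -2.26 ± 0.34 (SE; edgeR adjusted p = 0.042 over 13199 genes tested). On unscaled library totals, Kcnh3 had 1.61 CPM (95% exact binomial interval 1.13 to 2.23) and 1.97 CPM (1.42 to 2.68) in knockdown libraries, against 8.31 (6.99 to 9.80) and 8.20 (6.97 to 9.59) in controls. These intervals cover counting error only. The SDs above are smaller than that error, so neither measures how far replicates of Kcnh3 vary.

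The log2 fold change of Kcnh3 was -2.24 without control library 1 and -2.27 without control library 2. It was -2.15 without knockdown library 1 and -2.37 without knockdown library 2. Calls over the whole table shifted when a library was left out. That of Kcnh3 was lost without control library 1 or control library 2, and kept without knockdown library 1 or knockdown library 2. DESeq2 called the gene (adjusted p = 5.2e-05), whereas limma-voom (0.077), edgeR without robust estimation (0.065) and edgeR with a correction for length and GC content of the transcript (0.053) did not. In the GRCm38 annotation Kcnh3 shares 1 exonic base with Mcrs1, a gene on the opposite strand, which had 115 and 116 CPM in knockdown libraries and 108 and 126 CPM in controls. The ribosomal RNA precursor Rn45s, which counts toward the library totals, had 123000 and 106000 CPM in knockdown libraries, against 179000 and 161000 CPM in controls. Its log2 fold change was also below 0, -0.57 ± 0.16 (edgeR adjusted p = 0.20), and its part in the channel results was not tested.

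The rest of the EAG superfamily was not called. Kcnh2 had 30.9 and 22.7 CPM in knockdown libraries, against 31.1 and 39.3 CPM in controls. The change of -0.39 ± 0.21 on the log2 scale had an edgeR adjusted p of 0.49, and the highest knockdown value, 30.9 CPM, lay next to the lowest control value, 31.1 CPM. The change was -0.64 without knockdown library 1, -0.18 without knockdown library 2 and -0.21 without control library 2. Kcnh1, the EAG channel gene known for a role in the cell cycle of tumour cells, had 13 and 5 counts in knockdown libraries, against 13 and 29 counts in controls (-1.50 ± 0.78, adjusted p = 0.48). Kcnh4, a relative of Kcnh3 of the same ELK type, had 2.64 and 1.49 CPM in knockdown libraries, against 3.22 and 2.28 CPM in controls, and its groups overlapped. Kcnh6 did so too, at 1.30 and 0.465 CPM in knockdown libraries, against 1.64 and 0.953 CPM in controls. Without Kcnh3, the superfamily summed to 35.5 and 24.9 CPM in knockdown libraries, against 37.0 and 44.2 CPM in controls, and most of each sum was Kcnh2. Kcnh5, Kcnh7 and Kcnh8 had no more than 5 counts in any library.

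Across the family, 32 of the 94 genes passed the filter on low counts and were tested, and edgeR called 1 lower and 0 higher at an adjusted p under 0.05. Over all genes the same rule called 0.0455% lower and 0.0379% higher. At an unadjusted p under 0.05 the count was again 1 lower and 0 higher, where 5.43% and 6.18% of all genes passed. DESeq2 called 1 lower and 0 higher of the 11 members to which it gave an adjusted p, where 0.648% and 0.729% of all such genes were called, and limma-voom called 0 of 32 (0.0152% of all genes lower and 0.00758% higher), Kcnh3 being its 1 member at an unadjusted p under 0.05. After Kcnh3, the lowest edgeR adjusted p among members was 0.48.

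The log2 fold change was below 0 in 24 of the 32 tested members, or 75.0%, against 50.2% of all tested genes. The median was -0.28, and -0.27 without Kcnh3, beside -0.0016 over all genes. Both knockdown libraries lay below both controls in 13 tested members (40.6%, against 21.3% of all tested genes) and above both controls in 4 (12.5%, against 22.3%). These counts describe the members that passed the filter and carry no test. The median transcript of the tested members had 3537 bases, against 3042 over all tested genes, and with the correction for length and GC content the members' median was -0.21. Without knockdown library 2 the median was -0.17, with 22 of 32 below 0, and without another library it lay between -0.29 and -0.22.

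**Figure D3:**
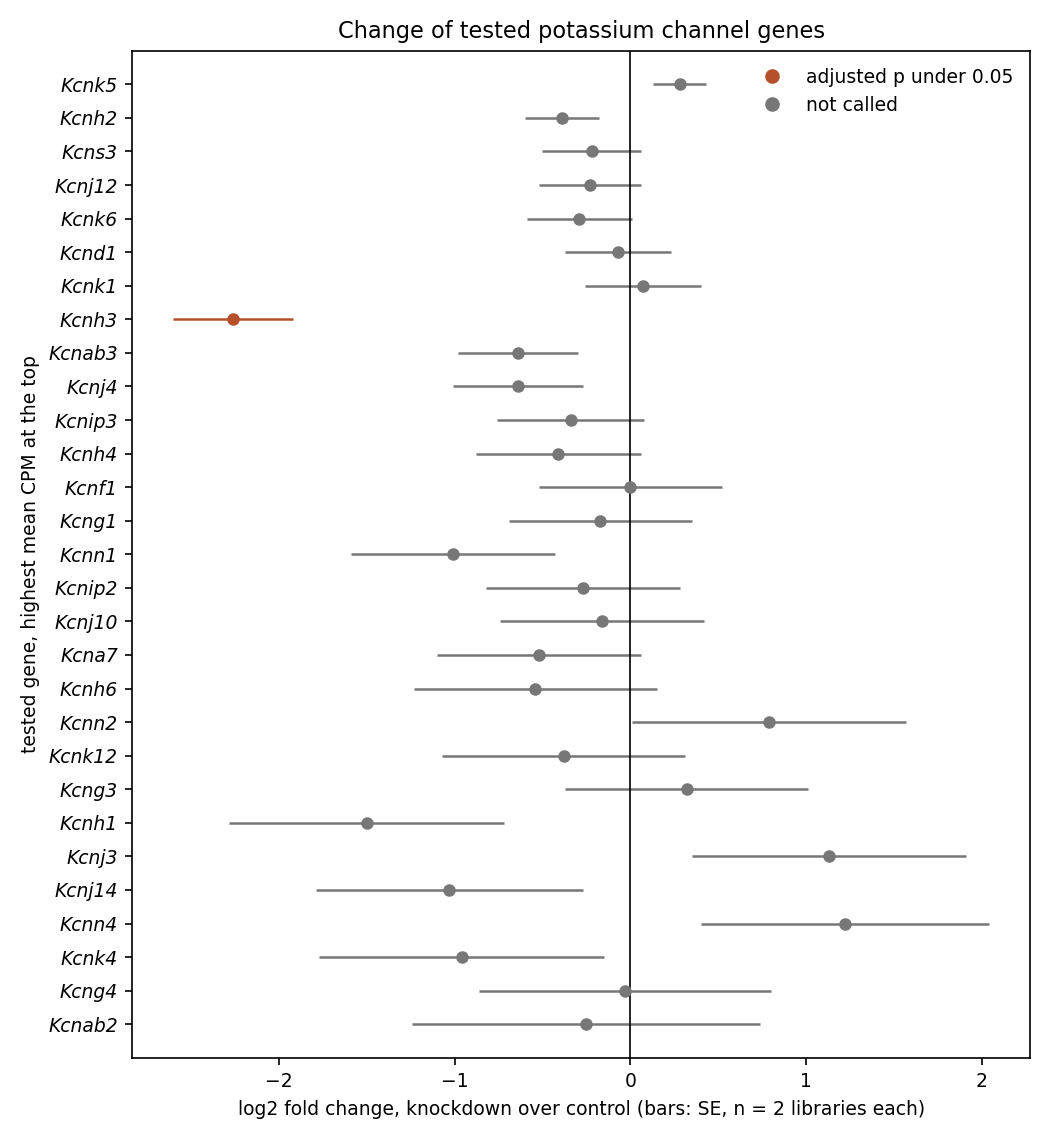
Log2 fold change, knockdown over control, of 29 tested potassium channel genes with their SE, ordered by mean CPM. Kcnh3, at -2.26, is the one gene called, and the bars widen toward the low genes at the bottom.

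Precision fell with the level. In the 13 tested members with a mean of at least 3 CPM, the SE of the log2 fold change ran from 0.15 to 0.38, and apart from Kcnh3 the largest absolute change was 0.64. In the 19 below 3 CPM the SE was 0.42 or more, up to 0.99 in Kcnab2, and changes near 1 on the log2 scale, such as that of Kcnn1, were not called there. Leaving out 1 library moved the log2 fold change by over 1.5 times, or turned its direction, in 28 of the 32, and the direction turned in 9. The 4 that moved less were Kcnh3, Kcns3, Kcnab3 and Kcnj4.

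Among the other voltage-gated channels, Kcnd1, of the transient Kv4 type, had 5.82 and 5.81 CPM in knockdown libraries, against 5.90 and 6.30 CPM in controls. The groups nearly met, at 5.82 and 5.90 CPM, and the change of -0.07 ± 0.30 on the log2 scale (SE) had an edgeR adjusted p of 0.96.

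Subunits without a working pore of their own were present as well. Kcns3 had 6.94 and 6.55 CPM in knockdown libraries, against 7.67 and 8.10 CPM in controls (-0.22 ± 0.28, edgeR adjusted p = 0.80). Kcnab3, a Kv beta subunit gene, had 3.90 and 3.48 CPM in knockdown libraries, against 6.57 and 4.98 CPM in controls. Both knockdown libraries lay below both controls in each of these genes, and the log2 fold change of Kcnab3, -0.64 ± 0.34, was not called (adjusted p = 0.49). The KChIP genes Kcnip3 and Kcnip2, calcium sensors that bind Kv4 channels, had log2 fold changes of -0.34 ± 0.42 and -0.27 ± 0.55. The silent subunit genes Kcnf1, Kcng1, Kcng3 and Kcng4 lay between -0.17 and 0.32.

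Among the inward rectifiers, Kcnj12 had 6.81 and 5.44 CPM in knockdown libraries, against 7.18 and 7.15 CPM in controls (log2 fold change -0.23 ± 0.29, adjusted p = 0.81 by edgeR), which was -0.40 without knockdown library 1 and -0.07 without knockdown library 2. Kcnj4, another Kir2 type gene, had 2.60 and 2.97 CPM in knockdown libraries, against 4.32 and 4.34 CPM in controls. The groups of Kcnj4 did not overlap, but the change of -0.64 ± 0.37 was not called (adjusted p = 0.53). Kcnj3, a G protein-gated channel gene, went the other way at low counts, with 28 and 13 counts in knockdown libraries, against 6 and 9 counts in controls (1.13 ± 0.78, adjusted p = 0.61). In the GRCm38 annotation the opposite-strand RNA Gm26794 covers 31.1% of the exonic bases of Kcnj3, so without strand the counts of Kcnj3 are uncertain. Kcnj10, the Kir4 type gene best known from glia, overlapped between groups at 28 and 26 counts in knockdown libraries and 28 and 20 counts in controls. Kcnj14 had 9 and 10 counts in knockdown libraries, against 11 and 21 counts in controls (-1.03 ± 0.76, adjusted p = 0.63).

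The K2P genes beside Kcnk5 had smaller levels. Kcnk6, a TWIK type relative of Kcnk1, had 5.29 and 5.48 CPM in knockdown libraries, against 7.18 and 6.04 CPM in controls (-0.29 ± 0.30, edgeR adjusted p = 0.75). Kcnk1 had 6.36 and 5.81 CPM in knockdown libraries, against 4.38 and 7.20 CPM in controls, with the groups overlapping (0.07 ± 0.33, adjusted p = 0.97). Summed over its 14 genes, the K2P family had 109 and 125 CPM in knockdown libraries, against 92.5 and 108 CPM in controls, and most of each sum was Kcnk5. Kcnk4, a mechanically gated channel gene, and Kcnk12 were tested at no more than 21 counts in a library, and their groups overlapped (-0.96 ± 0.81 for Kcnk4 and -0.38 ± 0.69 for Kcnk12). In the GRCm38 annotation Catsperz, a gene on the same strand, covers 13.1% of the exonic bases of Kcnk4, so its counts are uncertain.

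**Figure D4:**
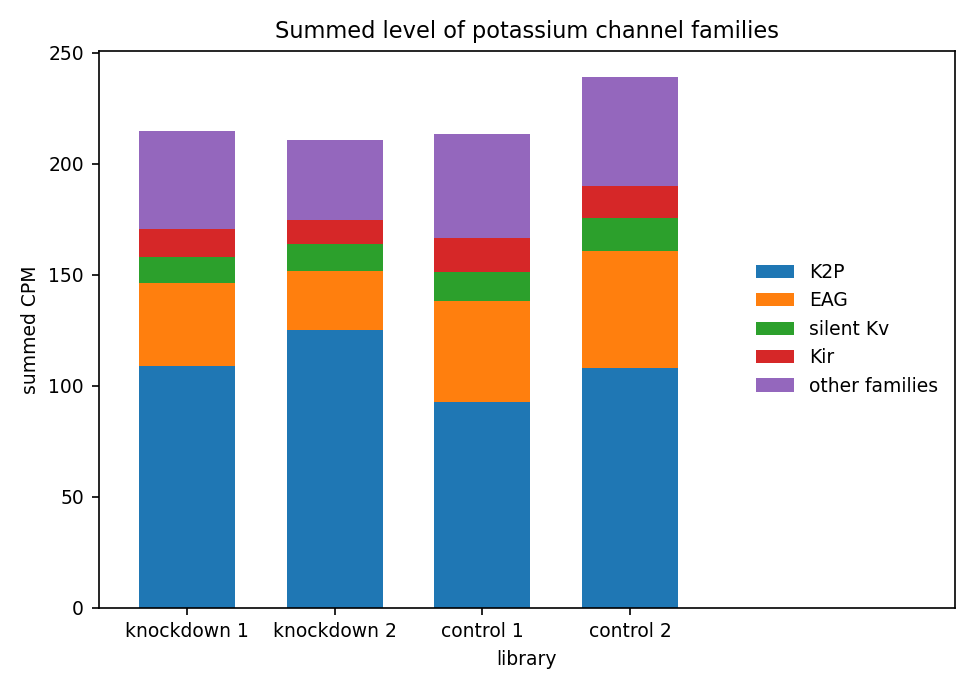
Summed CPM of potassium channel families in each library, knockdown libraries left of controls, with all families but the 4 named ones joined. K2P genes hold 109 and 125 CPM in knockdown libraries and 92.5 and 108 CPM in controls, and EAG genes 37.1 and 26.8 CPM against 45.6 and 52.5 CPM.

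The small- and intermediate-conductance calcium-activated channels had low counts that pointed in different directions. Kcnn4, the intermediate channel known from blood cells and epithelia, had 12 and 26 counts in knockdown libraries, against 7 and 6 counts in controls (1.22 ± 0.82, edgeR adjusted p = 0.59). Kcnn1, a small-conductance channel gene, had 23 and 25 counts in knockdown libraries, against 21 and 59 counts in controls (-1.01 ± 0.58, adjusted p = 0.53). The log2 fold change of Kcnn1 was -0.22 without control library 2, and between -1.51 and -0.93 without another library. Without scaling the counts of Kcnn1 overlapped, so its separation appears only after scaling to library size, the knockdown libraries having the larger totals. The same held for Kcnh2, Kcns3 and Kcnj12, among others. Kcnn2 had 16 and 32 counts in knockdown libraries, against 4 and 19 counts in controls, which overlapped.

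Of the 43 members with reads that were not tested, 7 (16.3%) had CPM lower in both knockdown libraries than in either control, against 13.2% of all genes with reads that were not tested, and 3 (6.98%) had CPM higher, against 9.85%. The untested members reached a mean of at most 0.489 CPM. The 12 of them with a read in all 4 libraries included Kcna1, Kcna3, Kcnc1, Kcnj2, Kcnj9, Kcnk3, Kcnk13, Kcnn3, Kcnq5, Kcns1 and Kcnt1, the last of which, a sodium-activated channel gene, had 2 and 5 counts in knockdown libraries, against 8 and 10 counts in controls. Kcnmb4, a beta subunit of the large-conductance channel, had 0 counts in both knockdown libraries, against 6 and 4 counts in controls. In the GRCm38 annotation the opposite-strand RNAs Kcnmb4os2 and Kcnmb4os1 cover 20.8% and 10.7% of its exonic bases, so without strand these counts are uncertain. The regulator gene Kcnrg had 5 and 3 counts in knockdown libraries, against 0 counts in both controls. With no filter on low counts edgeR gave Kcnmb4 an adjusted p of 0.42 and Kcnrg one of 0.60, and Kcnh3 was again the one member called, where 0.929% of all genes were called lower and 1.02% higher.

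Sites for miR-7 were found in 12 of the 31 tested members with a searched 3′ UTR (38.7%), against 28.4% of all tested genes. The members' 3′ UTRs had a median of 1526 bases, against 1357 over all tested genes. The median log2 fold change was -0.27 in members with a site and -0.27 in members without, where it was -0.04 and 0.01 over all tested genes with and without a site. Of the members printed above, Kcnk5 was at 0.28, Kcnf1 at 0.00, Kcnab2 at -0.25, Kcnk6 at -0.29 and Kcnab3, chosen for lying lower, at -0.64. Over the 12 tested members with a site, values ran from -1.50 (Kcnh1) to 1.13 (Kcnj3).

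Other genes that move potassium or other cations were described from lists. Of the 17 genes for subunits of the sodium-potassium and proton-potassium pumps, 10 were tested and edgeR called 0 (2 higher and 2 lower at an unadjusted p under 0.05), with a median log2 fold change of 0.33. Atp1b1, a beta subunit of the sodium pump, had 189 and 195 CPM in knockdown libraries, against 153 and 165 CPM in controls (0.27 ± 0.14, edgeR adjusted p = 0.48). Fxyd6, a pump regulator chosen after its values were seen, had 30.6 and 25.3 CPM in knockdown libraries, against 61.9 and 48.6 CPM in controls (-0.98 ± 0.19, adjusted p = 0.083), so it was not called.

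Of 9 cation-chloride cotransporter genes, 7 were tested and 0 were called (0 higher and 1 lower at an unadjusted p under 0.05, edgeR). Slc12a7, a potassium-chloride cotransporter gene, had 126 and 110 CPM in knockdown libraries, against 141 and 115 CPM in controls (-0.12 ± 0.16). Of 13 channel partners and potassium channels without a Kcn symbol, 6 were tested and 0 were called, with 0 at an unadjusted p under 0.05. The most abundant, Tmem38b, a potassium-permeable channel of the endoplasmic reticulum, had 42.3 and 35.4 CPM in knockdown libraries, against 35.3 and 28.5 CPM in controls. Of the cyclic nucleotide-gated cation channels, 4 of 10 were tested and 0 were called, with 0 at an unadjusted p under 0.05.

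Voltage-gated sodium and calcium channel genes gave no call either. Of 14 sodium channel genes 5 were tested (1 higher and 0 lower at an unadjusted p under 0.05), and of 26 calcium channel genes 14 were tested (2 higher and 1 lower). Cacna1c, the cardiac L-type pore gene, chosen after its values were seen, had 1 and 0 counts in knockdown libraries, against 22 and 11 counts in controls (edgeR adjusted p = 0.17).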

How the data were processed

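RNA-seq of 2 knockdown and 2 control libraries was deposited as raw read counts per gene symbol, 1 file per library, with no normalization. Per the submitters' processing notes, reads were handled with TopHat, SAMtools, bedtools and HTSeq on the mm9 build. Tool versions, the annotation and the use of strand were not given in the sources used here. The 5 closing tallies of each file name no gene and were left out: of all tallied reads, 26.1% to 32.8% had no unique alignment, 6.39% to 7.61% lay outside genes and 0.459% to 0.6% were ambiguous.

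Groups came from the sample titles. The design text calls the libraries biological replicates without saying how cultures were separated, so the p-values rest on the spread of these libraries alone, which may be technical. Replicates differed beyond sampling noise (chi-square per degree of freedom 20.5 between knockdown and 25.4 between control libraries). An exact permutation test of 2 against 2 cannot go below p = 0.333.

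Counts were tested with edgeR 4.0.16 (R 4.3.3) on the whole table: filterByExpr with minimum count 10, TMM factors, robust glmQLFit and two-sided glmQLFTest on group, Benjamini-Hochberg threshold 0.05. SE is the size of the log2 fold change divided by the root of F. The fits were tested on counts simulated from the dispersions of these data, with changes set only in genes of higher counts. That could not cover members with low counts, or effects shared by libraries of the same number. DESeq2 1.42.0 and limma-voom (limma 3.58.1) were alternatives, as were other factors, filters, a length and GC offset, a replicate block and leaving out each library. Lengths and 3′ UTRs (at least 50 bases) came from GENCODE M21 (GRCm38) by symbol. All 94 members matched, and 93 had a 3′ UTR. Length is that of the longest transcript with a RefSeq match, or of the longest transcript where none matched. The 3′ UTR is the longest over all transcripts of the gene, so it can belong to another transcript than the length. Exon overlaps between genes were read from the GRCm38 coordinates and may differ in the mm9 annotation used for counting. Named with values by library were members with an unadjusted or adjusted p under 0.05 and the 10 highest by CPM and by CPM per kilobase. Results for a few genes are not reported here. Further members were chosen after their values were seen. The members and lists were chosen with earlier results of these data known. A result for Kcnh3 was among them, so its call is not an independent finding.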

Additional observations from a re-analysis of the deposited data

How the results depend on the processing

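Kcnh3 had a log2 fold change below 0 in all 15 alternatives, and 10 of them called it. The calls were lost with limma-voom (-2.25), without robust estimation (-2.26), with the offset for length and GC (-2.16) and without either control library. Leaving out 1 library at a time gave values of -2.37 to -2.15. The count of Kcn genes called lower, 1 in the reported fit, was 0 in these 3 fits and between 0 and 1 over left-out libraries. The count called higher, 0 in the reported fit, was 1 (Kcnk5, at 0.37, adjusted p = 0.019) under the replicate block with the length and GC offset. Genes called over the whole table, 11 in the reported fit, numbered 6 with RLE factors or the CPM filter, 26 with upper-quartile factors, 50 with library size only, 332 with no filter, 136 by DESeq2, 3 by limma-voom, 4 without robust estimation, 7 with the length and GC offset and 0 to 191 over left-out libraries. With 1 library left in a group, that library is assumed to vary like the others.

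Under the replicate block 955 genes were called, and 1132 with the offset as well. Deviations of knockdown 1 and control 1 correlated at 0.244 across genes, but the labels do not say that a number marks a shared culture or day. Kcnh3 was called under both, at -2.26 and -2.16.

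Of 135 comparisons of 9 other named genes, 130 kept direction and call. Those that changed direction were Kcnk1 without knockdown 1 (-0.01) and without control 1 (-0.24, range over left-out libraries -0.24 to 0.47), and Kcnd1 at 0.10 with the offset, with and without the block. None of these 4 was called.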
